A study of Mus musculus with 2 samples.

Results

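Oxsr1, 1700020L24Rik, Fam65b, Frat2, Ccdc184, Tmem158, Utf1, Tff1, Enpp2 and Pkp4 are 10 of the 27998 genes counted in leukocytes from mouse B16 tumours. They were chosen because their summed levels in CD8 T cells differed strongly between the genotypes of the study, and because most have had little study in T cells. The difference in CD8 T cells is therefore given as a description. All 10 genes were found in both deposited matrices by their symbols, and all 10 had UMIs (unique molecular identifiers, tags that count each captured transcript) in CD8 T cells of both libraries.

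The study sorted CD45+ cells, that is leukocytes, from B16 melanomas 14 days after implantation into female C57BL/6 mice of 5 weeks of age, and loaded 2600 cells for each 3' droplet library. The 2 groups were mice with floxed Nrp1 alleles (Nrp1L/L Foxp3Cre-YFP) and Foxp3Cre-YFP mice, called the control below. Both carry Cre recombinase and a yellow fluorescent protein driven by Foxp3, the gene that defines regulatory T (Treg) cells, so the deletion is aimed at those cells and not at the CD8 T cells described here. Each genotype had 1 library, and how many mice or tumours fed it is not given in the labels. Genotype, mouse, tumour and library therefore cannot be told apart, no test of genotype can be made, and all intervals below are 95% intervals for counting error only.

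CD8 T cells kill tumour cells and pass from a naive or memory-like state, marked by Tcf7 and Ccr7, to an effector state in which granzymes, chemokines and interferon-gamma are made. They divide on the way, and T cells that go on meeting antigen in a tumour take on inhibitory receptors such as the product of Lag3. Several of the 10 genes are known mainly from other tissues. Oxsr1 encodes a kinase that WNK kinases activate and that sets the activity of chloride cotransporters. Fam65b, also named Ripor2, encodes an inhibitor of RhoA that has been studied in human T cells. Frat2 encodes a protein that binds the kinase GSK3, a brake on beta-catenin. Utf1 encodes a chromatin protein of embryonic stem cells. Tff1 encodes a trefoil peptide of the gastric mucosa. Enpp2 encodes autotaxin, the secreted enzyme that makes lysophosphatidic acid. Pkp4 encodes an armadillo protein of cell junctions. Tmem158 encodes a membrane protein known as a Ras-induced gene in human fibroblasts.

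On the GRCm38 build the 4 genes that stood higher in Nrp1L/L cells lie on 4 chromosomes. Oxsr1 (ENSMUSG00000036737) spans chr9:119238432-119322427 on the minus strand, 1700020L24Rik (ENSMUSG00000035085) chr11:83437677-83441233 on the plus strand, Fam65b (ENSMUSG00000036006) chr13:24582189-24733816 on the plus strand and Frat2 (ENSMUSG00000047604) chr19:41845972-41848132 on the minus strand. Of the 6 that stood lower, Ccdc184 (ENSMUSG00000029875) spans chr15:98167158-98170134 on the plus strand, Tmem158 (ENSMUSG00000054871) chr9:123259053-123260764 on the minus strand and Utf1 (ENSMUSG00000047751) chr7:139943789-139945112 on the plus strand. Tff1 (ENSMUSG00000024032) spans chr17:31161395-31165277 on the minus strand, Enpp2 (ENSMUSG00000022425) chr15:54838901-54952892 on the minus strand and Pkp4 (ENSMUSG00000026991) chr2:59160850-59355208 on the plus strand. All are annotated as protein coding.

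Promoters of 6 of the 10 genes were matched in RefSeq (GRCm38.p6): Oxsr1, Fam65b, Frat2, Ccdc184, Utf1 and Pkp4. They have 9 RefSeq starts, 3 of them in Fam65b and 2 in Pkp4. The 250 bases before each start were searched on both strands for 9 short motifs, to show what these genes do and do not share in sequence. The windows below hold the matches named here, each printed 5′ to 3′ with the motif in capitals.
Oxsr1: ttccccggcgtggTGACGTCAgcgcgctgc
Fam65b: accctgtgtttaTTTTCCcttaaatgggag
Frat2: cgctcgcaaccaTATAAActatctctgggc
Utf1: aggtaggcgaggGGGCGGggcggctagacg
Pkp4: ttccgcccaatgGGGCGGgcgcggagcctg
The Oxsr1 window (chr9:119322428-119322457, minus strand) holds the cyclic AMP response element TGACGTCA, which 1.55% of 32851 mouse promoters hold in the same length. In Fam65b (chr13:24582116-24582145, plus strand) the capitals are the reverse complement of GGAAAA, the core of the NFAT motif, present in 20.4% of promoters. The Frat2 window (chr19:41848251-41848280, minus strand) holds the TATA motif TATAAA (12.4% of promoters). GC boxes (GGGCGG) were found before 5 of the 9 starts, 1 start in each of the genes but Frat2, and in 32.7% of all promoters. The Fam65b start with a GC box is not the one with the NFAT match. They are shown for Utf1 (chr7:139943706-139943735, plus strand) and Pkp4 (chr2:59160751-59160780, plus strand), each 1 of several in its promoter. The windows lie before the RefSeq start, which need not be the start of the gene spans above. No match was found for AP-1 (TGANTCA), forkhead (TGTTTAC), GAS (TTCNNNGAA), TCF/LEF (CTTTGAT) or the E-box (CACGTG). A match is a description of letters and not evidence of binding.

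Cells were put into classes by UMIs of a few genes. CD8 T cells had at least 2 UMIs of Cd3d, Cd3e and Cd3g together and at least 2 of Cd8a and Cd8b1, and were called cycling with at least 3 UMIs of Mki67, Top2a, Birc5 and Ube2c. Other CD3 cells passed the CD3 rule with fewer than 2 UMIs of Cd8a and Cd8b1, NK cells had at least 2 UMIs of Ncr1 and Klrb1c and were not CD3 cells, and myeloid cells had at least 10 UMIs of Lyz2. The Nrp1L/L library gave 394 CD8 T cells (30.9% of 1275 kept cells; 95 cycling and 299 not), 360 other CD3 cells, 186 NK cells and 201 myeloid cells. The control library gave 236 CD8 T cells (18.1% of 1302 kept cells; 102 cycling and 134 not), 201 other CD3 cells, 81 NK cells and 559 myeloid cells. Cycling cells were 24.1% (19.97 to 28.6) of Nrp1L/L and 43.2% (36.8 to 49.8) of control CD8 T cells. Median depth in CD8 T cells was 6578.5 UMIs in the Nrp1L/L and 10846 UMIs in the control library, and 5891 and 6024 UMIs in non-cycling CD8 T cells. The libraries shared 3 barcode sequences.

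Cd8a, Ncr1 and Lyz2 are part of the class rules, so their levels follow from those rules and do not check the class names. In the Nrp1L/L library Cd8a stood at 1113 CPM (counts per 1000000 UMIs of the class) in CD8 T cells and at 6.52 to 10.7 CPM in the other classes. In the control library it stood at 716 CPM in CD8 T cells and at 0 to 8.84 CPM elsewhere. Ncr1 was 934 and 742 CPM in NK cells and Lyz2 was 23582 and 15368 CPM in myeloid cells of the Nrp1L/L and control libraries. Lyz2 was also counted at 67.5 CPM in Nrp1L/L and 86.0 CPM in control CD8 T cells and 76.0 CPM in Nrp1L/L and 122 CPM in control NK cells. In CD8 T cells the summed melanoma markers were 2.91 and 4.36 CPM in the Nrp1L/L and control libraries (5 and 4 of 9 genes at 0), the fibroblast markers 2.91 and 0 CPM (5 and 7 of 7 at 0), and the epithelial markers 2.91 and 4.36 CPM (4 and 5 of 6 at 0). The NK marker list summed to 517 CPM in Nrp1L/L and 270 CPM in control CD8 T cells, with 0 of its 9 genes at 0 in both. In other CD3 cells the same list summed to 1013 CPM in the Nrp1L/L and 1244 CPM in the control library. Of all CD3 cells, 56 in the Nrp1L/L and 36 in the control library also passed the NK rule. Cd4 stood at 18.3 CPM in Nrp1L/L and 3.69 CPM in control CD8 T cells, and Foxp3 had 0 UMIs in both. The part of these markers in the differences below was not tested. Nrp1, the targeted gene, stood at 26.8 CPM in Nrp1L/L and 56.7 CPM in control CD8 T cells. A 3' tag may lie outside the deleted part, so this level does not check the deletion.

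**Figure D1:**
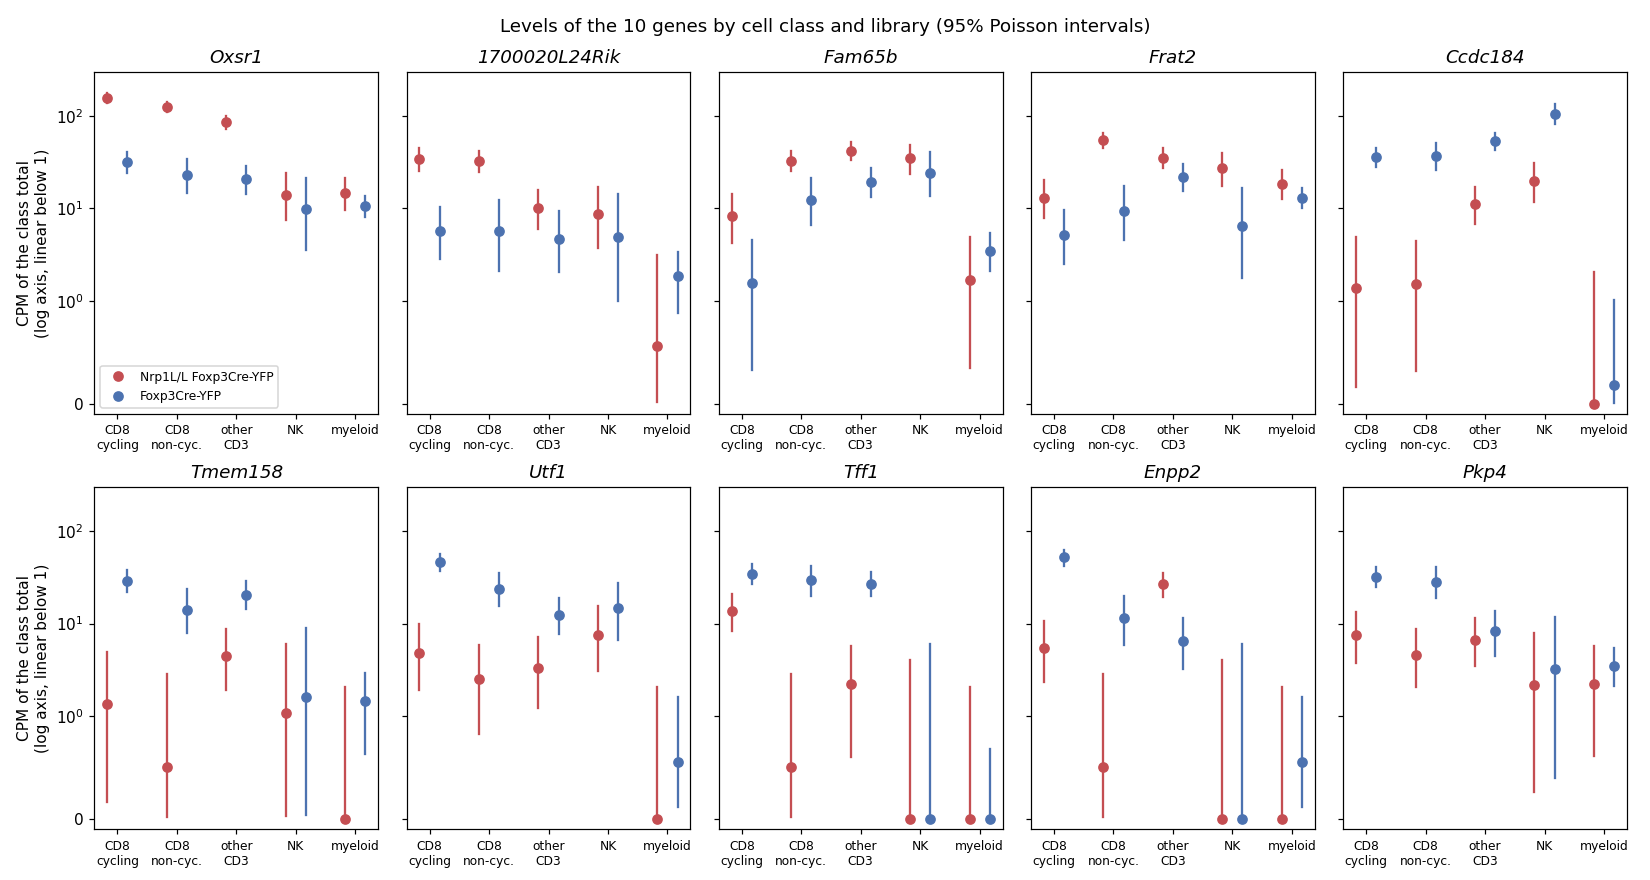
Level of each of the 10 genes in 5 cell classes, in CPM of the class (log axis, linear below 1), with the Nrp1L/L library in red to the left of the control in blue and bars for 95% Poisson intervals. The red points lie above the blue in both CD8 classes for the 4 genes from Oxsr1 to Frat2 and below them for the 6 genes from Ccdc184 to Pkp4, while Enpp2 in other CD3 cells has the red point on top.

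In CD8 T cells 4 of the 10 genes stood higher by 2-fold or more in the Nrp1L/L library and 6 stood lower by as much. Over all 8909 genes with at least 20 UMIs there, 6.56% passed 2-fold upward, 4.89% downward and 11.4% in either direction. The members were picked on this contrast, so nothing is read from the counts. The members' own counts were taken without the minimum of 20 UMIs, which all 10 passed here. Among the 8909 genes the 4 ranked 28th (1700020L24Rik), 35th (Frat2), 47th (Oxsr1) and 60th (Fam65b) from the highest ratio. The 6 ranked 7th (Tmem158), 9th (Ccdc184), 14th (Enpp2), 25th (Utf1), 55th (Tff1) and 57th (Pkp4) from the lowest.

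Oxsr1, the WNK-activated kinase, gave the most UMIs of the 10 genes in Nrp1L/L CD8 T cells. It stood at 138 CPM (126 to 151, 475 UMIs) in Nrp1L/L and 28.5 CPM (22.8 to 35.3, 85 UMIs) in control CD8 T cells, a log2 ratio of 2.28 (1.94 to 2.63). A UMI was found in 118 of 394 Nrp1L/L cells and 36 of 236 control cells, and the fullest cell held 22 and 8 UMIs. The difference was thus spread over many cells and was of like size in both cycle classes, with log2 2.30 (1.89 to 2.73) in cycling and 2.46 (1.85 to 3.13) in non-cycling CD8 T cells.

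1700020L24Rik has no assigned function here. It stood at 33.2 CPM (27.4 to 39.9, 114 UMIs) in Nrp1L/L and 5.71 CPM (3.33 to 9.14, 17 UMIs) in control CD8 T cells, a log2 ratio of 2.54 (1.80 to 3.37). The ratio was 2.58 in cycling and 2.51 in non-cycling cells, so it too was of like size in both classes. Of the 114 Nrp1L/L UMIs, 17 came from 1 cell.

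Fam65b, the RhoA inhibitor, stood at 22.4 CPM (17.7 to 28.0, 77 UMIs) in Nrp1L/L and 5.37 CPM (3.07 to 8.72, 16 UMIs) in control CD8 T cells, a log2 ratio of 2.06 (1.27 to 2.94). Frat2 stood at 36.7 CPM (30.6 to 43.7, 126 UMIs) in Nrp1L/L and 6.72 CPM (4.10 to 10.4, 20 UMIs) in control CD8 T cells, a log2 ratio of 2.45 (1.76 to 3.21). In Nrp1L/L cells 1 cell held 23 of the 126 Frat2 UMIs, and with the fullest cell of each library left out the ratio was 2.38. Both genes were lower in cycling than in non-cycling cells of the same library, as given below.

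The 6 lower genes had few UMIs in Nrp1L/L CD8 T cells, from 3 (Tmem158) to 21 (Tff1). Ccdc184, a coiled-coil gene, stood at 1.46 CPM (0.473 to 3.40, 5 UMIs in 4 cells) in Nrp1L/L and 36.3 CPM (29.7 to 43.8, 108 UMIs in 28 cells) in control CD8 T cells, a log2 ratio of -4.64 (-6.29 to -3.37). Tmem158 gave 3 UMIs in Nrp1L/L and 71 UMIs in control CD8 T cells, a log2 ratio of -4.77 (-7.08 to -3.16). Enpp2 stood at 2.62 CPM (1.20 to 4.97, 9 UMIs) in Nrp1L/L and 37.6 CPM (31.0 to 45.2, 112 UMIs) in control CD8 T cells, a log2 ratio of -3.84 (-5.01 to -2.87). Only 2 Nrp1L/L cells held Enpp2, and 8 of the 9 UMIs came from 1 of them, against 26 control cells.

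Utf1 stood at 3.49 CPM (1.81 to 6.10, 12 UMIs) in Nrp1L/L and 38.3 CPM (31.6 to 46.0, 114 UMIs) in control CD8 T cells, a log2 ratio of -3.45 (-4.45 to -2.59). Tff1 stood at 6.11 CPM (3.78 to 9.35, 21 UMIs) in Nrp1L/L and 32.6 CPM (26.4 to 39.7, 97 UMIs) in control CD8 T cells, a log2 ratio of -2.41 (-3.17 to -1.72). Pkp4 stood at 5.82 CPM (3.56 to 8.99, 20 UMIs) in Nrp1L/L and 30.9 CPM (24.9 to 37.9, 92 UMIs) in control CD8 T cells, a log2 ratio of -2.41 (-3.18 to -1.70). For all 6 genes the counting intervals of the libraries were apart. The fullest control cell held 7.61% (Pkp4) to 17.6% (Ccdc184) of a gene's control UMIs, so none of the 6 control levels rested on 1 cell.

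Direction and the 2-fold difference in CD8 T cells held for all 10 genes under each of 10 other settings, which include thinning, other scalings and leaving out the fullest cell. The sizes of the lower genes were less settled. Utf1 ran from -4.17 in cells of 6000 to 20000 UMIs, an upper bound because no Nrp1L/L cell of that depth held it, to -1.59 after thinning, Ccdc184 from -5.40 to -3.70 and Enpp2 from -6.78 without the fullest cell to -3.32 after thinning. After thinning the Nrp1L/L library held 0 UMIs of Tmem158 and of Enpp2, so those values, -2.74 and -3.32, are upper bounds from a floor of 3 UMIs over the class.

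**Figure D2:**
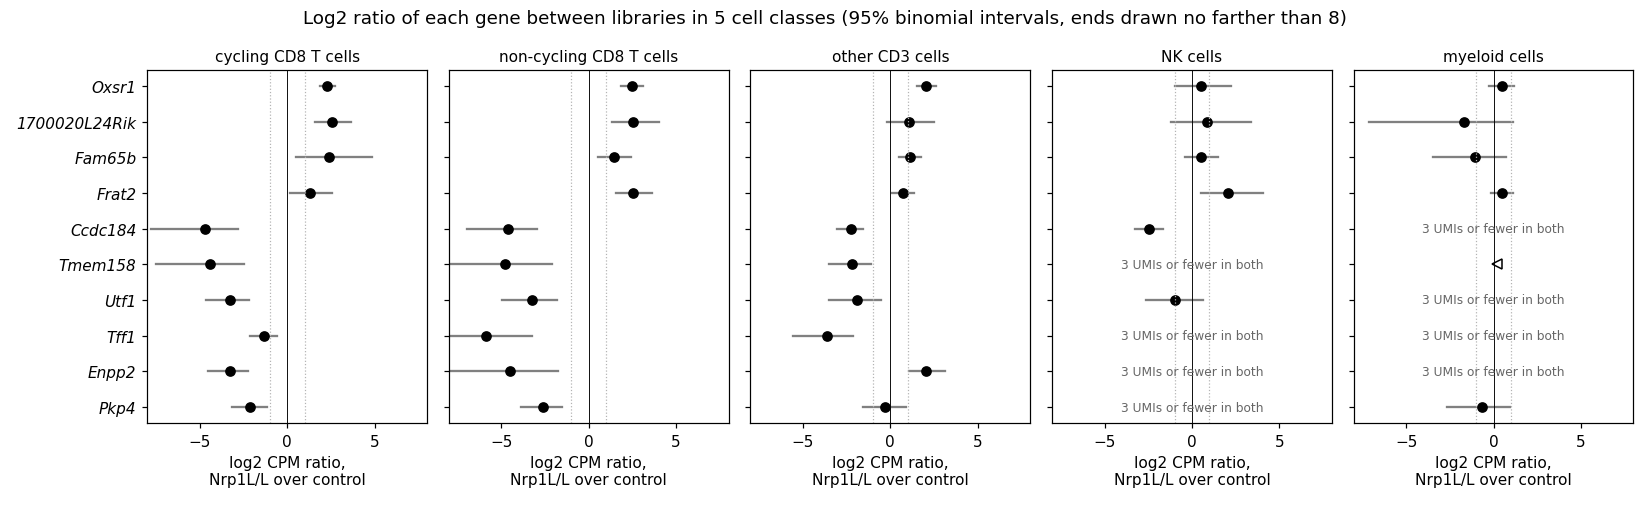
Log2 ratio of CPM, Nrp1L/L over control, for each gene in 5 cell classes, with bars for 95% conditional binomial intervals drawn no farther than 8, and dotted lines at 2-fold. Text marks genes with 3 UMIs or fewer in both libraries and the open triangle an upper bound; the 4 genes on top lie right of 0 and the 6 below left of it in both CD8 panels, while few genes lie beyond 2-fold in NK or myeloid cells.

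Shares of cells with a UMI went the same way as the levels. Oxsr1 was found in 29.9% (25.5 to 34.7) of Nrp1L/L and 15.3% (10.9 to 20.5) of control CD8 T cells, 1700020L24Rik in 14.0% and 5.51%, Fam65b in 11.2% and 4.24%, and Frat2 in 12.9% and 4.66%. The lower genes were found in 0.508% (Enpp2) to 2.79% (Pkp4) of Nrp1L/L and 11.02% (Enpp2) to 19.1% (Utf1 and Pkp4) of control CD8 T cells. Control CD8 T cells were the deeper ones, so each cell was also thinned to 2500 UMIs, which left out 0 cells.

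After thinning Oxsr1 was in 17.0% of Nrp1L/L and 5.93% of control CD8 T cells, 1700020L24Rik in 6.09% and 1.27%, Fam65b in 5.58% and 1.27%, and Frat2 in 8.38% and 1.69%. The 4 higher genes were thus more often found in the shallower library with or without thinning. Thinned shares of the lower genes were 0.254% and 6.78% for Ccdc184, 1.02% and 3.81% for Utf1, 0.508% and 5.08% for Tff1 and 1.78% and 5.93% for Pkp4 in Nrp1L/L and control cells. Tmem158 and Enpp2 were in 0 of 394 thinned Nrp1L/L cells, which at a floor of 3 cells allows a share of cells with a UMI of up to 0.761% (Clopper-Pearson upper limit 0.932%), and in 4.24% and 5.51% of control cells. The share differed at least 2-fold for 9 genes with all UMIs, Oxsr1 being the exception, and for all 10 after thinning.

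Myeloid cells were used as the background for these shares, at median depths of 8300 and 8584 UMIs in the Nrp1L/L and control libraries. Whether a UMI there is free RNA or expression by the cell was not tested. Tff1 was in 0 of 201 Nrp1L/L and 0 of 559 control myeloid cells, which at a floor of 3 cells allows shares of cells with a UMI of up to 1.49% and 0.537% (Clopper-Pearson upper limits 1.82% and 0.658%). These limits cover cells with a UMI and not cells expressing the gene. Ccdc184, Tmem158, Utf1 and Enpp2 were in 0 of 201 Nrp1L/L and 0.179% to 0.894% of control myeloid cells, and Pkp4 in 1.99% and 2.50%. Control CD8 T cells stood well above these shares for all 6 genes. In the Nrp1L/L library the CD8 T and myeloid intervals overlapped for all 6, as for Pkp4 at 2.79% (1.40 to 4.94) and 1.99% (0.545 to 5.02). These shares therefore do not tell the 6 apart from the background there. The level of Tff1 did stand apart, at 6.11 CPM (3.78 to 9.35, 21 UMIs in 5 cells) in Nrp1L/L CD8 T cells and 0 CPM (0 to 2.07) in Nrp1L/L myeloid cells. Intervals of the levels overlapped for the other lower genes.

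Among the higher genes Oxsr1 and Frat2 had larger myeloid shares than any lower gene, while 1700020L24Rik and Fam65b had smaller ones than Pkp4. Oxsr1 was in 8.46% (5.00 to 13.2) of Nrp1L/L and 6.80% (4.86 to 9.21) of control myeloid cells, and its CD8 T intervals lay above these in both libraries. 1700020L24Rik was in 0.498% of Nrp1L/L and 1.61% of control myeloid cells and Fam65b in 1.49% and 2.15%, with CD8 T intervals apart from them in the Nrp1L/L library and overlapping in the control. Frat2 was in 6.97% (3.86 to 11.4) of Nrp1L/L and 6.62% (4.70 to 9.01) of control myeloid cells, which overlapped the CD8 T intervals in both libraries, and its control CD8 T share, 4.66%, was below the myeloid one.

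**Figure D3:**
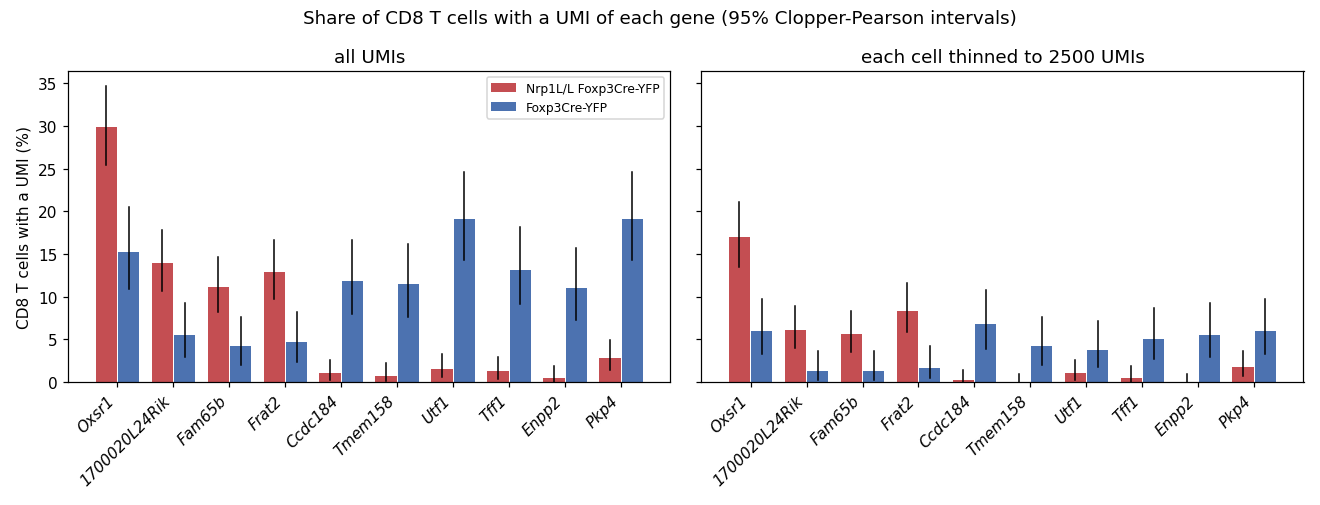
Percent of CD8 T cells with a UMI of each gene, Nrp1L/L in red and control in blue, with all UMIs on the left and with each cell thinned to 2500 UMIs on the right; bars start at 0 and lines are 95% Clopper-Pearson intervals. Oxsr1 has the highest Nrp1L/L share in both panels, 29.9% and 17.0%, and the 6 genes on the right have near-empty red bars.

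Cycling CD8 T cells kept both groups of genes: 4 stood 2-fold or more higher in the Nrp1L/L library and 6 lower, where 6.37% and 5.45% of 7608 genes did (11.8% in either direction). The ratios ran from 1.32 (0.14 to 2.59) for Frat2 to 2.58 for 1700020L24Rik among the higher genes, and from -4.71 for Ccdc184 to -1.33 (-2.13 to -0.59) for Tff1 among the lower. Tff1 was the lower gene with most left in Nrp1L/L cycling cells, at 13.7 CPM (20 UMIs in 4 cells) against 34.3 CPM (66 UMIs in 23 cells) in control ones. With the minimum of 20 UMIs 9 members counted, 3 higher and 6 lower. After thinning 7 of the 10 were still at least 2-fold different. Since CD8 T cells of both classes entered the choice of the genes, this is a breakdown of the same difference.

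Non-cycling CD8 T cells had near-equal median depths in the libraries and gave the same 4 and 6, where 8.64% of 7341 genes passed 2-fold upward, 5.38% downward and 14.0% in either direction. With the minimum of 20 UMIs 8 members counted, 4 higher and 4 lower. Utf1 stood at 2.54 CPM in Nrp1L/L and 23.7 CPM in control non-cycling cells, a log2 ratio of -3.22 (-4.97 to -1.81). Pkp4 stood at 4.57 CPM in Nrp1L/L and 28.4 CPM in control non-cycling cells, a log2 ratio of -2.64 (-3.90 to -1.53). Tmem158, Tff1 and Enpp2 had 1 UMI each in the Nrp1L/L library and 15, 31 and 12 UMIs in the control, with log2 ratios of -4.81 (-10.20 to -2.11), -5.86 (-11.21 to -3.27) and -4.49 (-9.90 to -1.73). Several of these control levels rested on few cells. The fullest control cell held 19 of 39 UMIs of Ccdc184, 13 of 31 of Tff1, 5 of 12 of Enpp2 and 5 of 15 of Tmem158. After thinning, 0 Nrp1L/L non-cycling cells held Tff1, and its ratio was an upper bound of -1.57.

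Within a library the genes differed in how they followed the cycle. Fam65b stood at 8.20 CPM in cycling and 33.0 CPM in non-cycling Nrp1L/L CD8 T cells, a log2 ratio of -2.01 (-3.03 to -1.11), and at 1.56 and 12.3 CPM in control ones, a log2 ratio of -2.98 (-5.43 to -1.12). Frat2 stood at 13.0 CPM in cycling and 54.3 CPM in non-cycling Nrp1L/L cells (log2 -2.06, -2.85 to -1.35) and at 5.20 and 9.48 CPM in control ones (log2 -0.87, -2.29 to 0.55), an interval that spans 0. Of all genes 8.48% of 7715 in the Nrp1L/L and 6.88% of 7335 in the control library were lower by 2-fold or more in cycling cells.

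Enpp2 went the other way. It stood at 52.0 CPM (42.3 to 63.2) in cycling and 11.4 CPM (5.88 to 19.9) in non-cycling control CD8 T cells, a log2 ratio of 2.19 (1.33 to 3.19). Tmem158 stood at 29.1 CPM in cycling and 14.2 CPM in non-cycling control cells (log2 1.03, 0.19 to 1.96), and Utf1 at 46.3 and 23.7 CPM (log2 0.97, 0.31 to 1.67). Of all genes 11.4% in the Nrp1L/L and 12.5% in the control library were higher by 2-fold or more in cycling cells. Oxsr1 (0.33 in Nrp1L/L, 0.48 in control), 1700020L24Rik (0.07 and 0.01), and in control cells Ccdc184 (-0.04), Tff1 (0.22) and Pkp4 (0.18) had ratios under 1.5-fold between cycle classes. In Nrp1L/L cells Tff1 had a ratio of 4.75 (2.11 to 10.1), on 20 UMIs in 4 cycling cells and 1 UMI in non-cycling ones. Pkp4 had 0.72 (-0.69 to 2.17) there, and Ccdc184 had 3 UMIs or fewer in both cycle classes. Cycling cells were also the deeper ones, at 13920 against 5891 UMIs in Nrp1L/L and 16984 against 6024 UMIs in control cells.

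**Figure D4:**
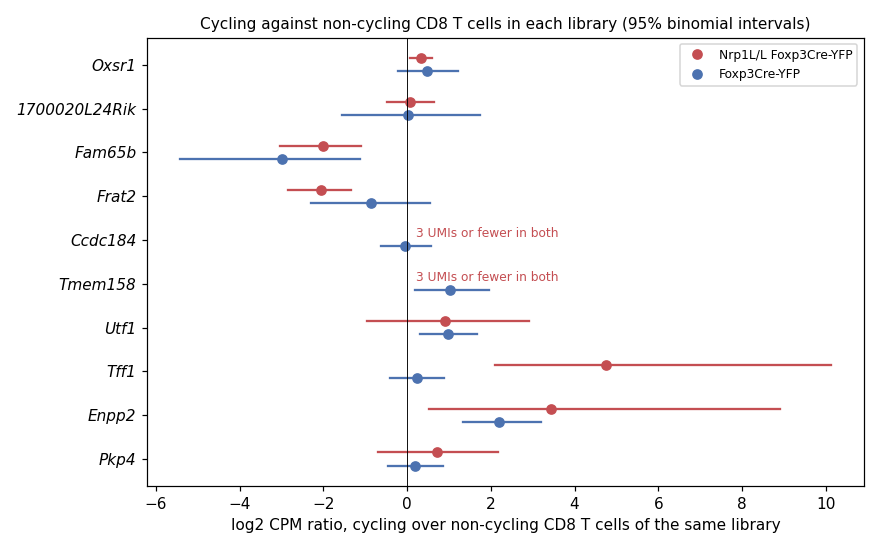
Log2 ratio of CPM in cycling over non-cycling CD8 T cells of the same library, Nrp1L/L in red above control in blue, with 95% conditional binomial intervals. Fam65b and Frat2 lie left of 0 in both libraries and Enpp2 right of it in both, while Oxsr1 and 1700020L24Rik lie close to 0. The control Frat2 interval spans 0, and the Nrp1L/L Enpp2 point rests on 8 UMIs in 1 cycling cell and 1 UMI in a non-cycling one.

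Other CD3 cells, which hold CD4 T cells and CD3 cells with few CD8 UMIs, had 4 of the 10 genes higher by 2-fold or more in the Nrp1L/L library and 4 lower, where 7.44% and 6.32% of 8048 genes were (13.8% in either direction). Oxsr1 stood at 85.4 CPM (154 UMIs) in Nrp1L/L and 20.6 CPM (35 UMIs) in control cells, a log2 ratio of 2.05 (1.51 to 2.62), but 1 Nrp1L/L cell held 58 of the 154 UMIs and 1 control cell 13 of the 35. Fam65b stood at 42.1 CPM in Nrp1L/L and 19.4 CPM in control cells, a log2 ratio of 1.12 (0.51 to 1.75), and its highest level in each library was in these cells (Nrp1L/L) or in NK cells (control), with intervals that overlapped between these 2 classes. 1700020L24Rik had a ratio of 1.08 (-0.19 to 2.49), whose interval spans 0, and Frat2 one of 0.70 (0.10 to 1.33).

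Enpp2 was the gene whose direction turned between CD8 T cells and other CD3 cells taken as a whole. In other CD3 cells it stood at 26.6 CPM (19.6 to 35.3, 48 UMIs in 12 cells) in the Nrp1L/L and 6.48 CPM (3.24 to 11.6, 11 UMIs in 4 cells) in the control library, a log2 ratio of 2.04 (1.07 to 3.13), against -3.84 in CD8 T cells. Of the 48 Nrp1L/L UMIs 18 came from 1 cell. Cells with a Cd4 UMI held 42 of them, in 10 of 98 cells, against 8 UMIs in 3 of 57 such control cells. Tff1 in cells with a Cd4 UMI stood at 6.28 CPM in Nrp1L/L (4 UMIs, all in 1 cell) and 68.5 CPM in control cells (41 UMIs in 12 of 57 cells), so control CD4-positive cells held the highest Tff1 level of any group described here.

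The other lower genes kept their direction in other CD3 cells taken as a whole. Tff1 as a whole had a log2 ratio of -3.61 (-5.55 to -2.16), Ccdc184 -2.27 (-3.05 to -1.56), Tmem158 -2.22 (-3.54 to -1.08) and Utf1 -1.90 (-3.49 to -0.54). Pkp4 stood at 6.65 CPM in Nrp1L/L and 8.25 CPM in control cells, a ratio of -0.31 (-1.55 to 0.91). In the control library it thus stood lower in these cells than in CD8 T cells, at 30.9 CPM, and their intervals were apart. Ccdc184 lost the 2-fold difference in cells of 6000 to 20000 UMIs, where the ratio was -0.53. In cells with a Cd4 UMI it stood at 18.8 CPM (9.74 to 32.9, 12 UMIs) in Nrp1L/L and 8.35 CPM (2.71 to 19.5, 5 UMIs) in control cells. These intervals overlap. In cells with no Cd4 UMI Ccdc184 stood at 6.86 CPM (8 UMIs) in Nrp1L/L and 78.3 CPM (86 UMIs) in control cells.

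NK cells had 1 gene higher by 2-fold or more and 1 lower, where 11.3% and 5.30% of 5796 genes were (16.6% in either direction). Only 3 members had the 20 UMIs that these shares ask for. Frat2 stood at 27.2 CPM (25 UMIs) in Nrp1L/L and 6.51 CPM (4 UMIs) in control NK cells, a log2 ratio of 2.06 (0.53 to 4.04). Ccdc184 stood at 19.5 CPM (18 UMIs in 5 cells) in Nrp1L/L and 106 CPM (81.7 to 135, 65 UMIs in 9 cells) in control NK cells, its highest level in any of the 5 classes, with a log2 ratio of -2.44 (-3.28 to -1.67). The ratio was -0.65 in NK cells of 6000 to 20000 UMIs and -3.75 without the fullest cell of each library, which held 13 of 18 and 21 of 65 UMIs. Oxsr1 stood at only 14.1 CPM in Nrp1L/L and 9.77 CPM in control NK cells (0.53, -0.96 to 2.21). Tff1 and Enpp2 had 0 UMIs in NK cells of both libraries, and Tmem158 and Pkp4 had 1 and 2 in each.

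Myeloid cells had 0 of the 10 genes higher by 2-fold or more and 2 lower, where 5.52% and 10.9% of 8912 genes were (16.5% in either direction). Only 4 members had 20 UMIs, with 1 of them lower. The 2 were 1700020L24Rik, with 1 Nrp1L/L and 10 control UMIs (log2 -1.71, -7.15 to 1.10), and Fam65b, with 3 and 19 UMIs (-1.05, -3.45 to 0.71). Both intervals span 0, and after thinning no gene was at least 2-fold different. Oxsr1 stood at 14.6 CPM in Nrp1L/L and 10.7 CPM in control myeloid cells (0.45, -0.28 to 1.14) and Frat2 at 18.5 and 13.1 CPM (0.50, -0.14 to 1.12). In the Nrp1L/L library the myeloid levels of Oxsr1 and Fam65b were below those of both CD8 classes, with intervals apart for Oxsr1 and overlapping between myeloid and cycling cells for Fam65b.

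The order of the classes set some genes apart. Oxsr1 in the Nrp1L/L library stood at 157 CPM (137 to 178) in cycling CD8 T cells, 125 CPM (110 to 141) in non-cycling ones, 85.4 CPM in other CD3 cells, and 14.6 and 14.1 CPM in myeloid and NK cells. Intervals of neighbours overlapped between the cycle classes and between myeloid and NK cells. In the control library the order was the same, with 31.7, 22.7, 20.6, 10.7 and 9.77 CPM, and the only neighbours with intervals apart were other CD3 and myeloid cells. Other CD3 cells were mixed for Oxsr1. Nrp1L/L ones with a Cd4 UMI stood at 196 CPM (163 to 234, 125 UMIs in 17 of 98 cells, 58 in 1 cell). Those with no Cd4 UMI stood at 24.9 CPM (16.6 to 35.7). The control levels were 36.8 CPM (23.0 to 55.6, 22 UMIs, 13 in 1 cell) and 11.8 CPM. In both libraries the Cd4-positive level was thus above that of either CD8 class, with intervals that overlapped those of cycling CD8 T cells. Ccdc184 had another order, with NK cells first, at 19.5 CPM in the Nrp1L/L and 106 CPM in the control library, then other CD3 cells, at 11.1 and 53.6 CPM, then both CD8 classes, and myeloid cells last. In the control library its NK interval lay apart from that of other CD3 cells, while other CD3 and CD8 intervals overlapped.

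Some single CD8 T cells of the control library held several of the lower genes. The genes were picked on their summed levels in CD8 T cells, so a difference between the libraries in such counts follows from the choice. Whether the counts exceed what the shares of the single genes would give was not tested. At least 2 of the 6 had a UMI in 3 of 394 Nrp1L/L cells and 52 of 236 control cells, and 3 control cells held 5 of them. These 52 cells were deep, with a median of 20032 UMIs against 6382 UMIs in the 133 control cells with none of the 6. After thinning 0 of 394 Nrp1L/L and 13 of 236 control cells held at least 2, so fewer control cells held several of the genes at equal depth. At least 2 of the 4 higher genes were found in 57 of 394 Nrp1L/L cells and 7 of 236 control cells, and in 16 and 1 after thinning.

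Pairs of lower genes were compared within a range of depth, in the 130 control CD8 T cells of 6000 to 20000 UMIs. Ccdc184 was in 14 of them and Enpp2 in 13, and 5 cells held both, which is 35.7% of the Ccdc184 cells and 38.5% of the Enpp2 cells. Ccdc184 was in 10.8% of all 130 cells. Tff1 was in 6 of the 14 Ccdc184 cells (42.9%) against 13.8% of all, and Tmem158 in 5 (35.7%) against 11.5%. Utf1 and Pkp4 shared 4 cells, 17.4% of the 23 Utf1 cells and 21.1% of the 19 Pkp4 cells, close to their shares of all cells, 17.7% and 14.6%. In the 209 Nrp1L/L cells of that depth 17 held both Oxsr1 and 1700020L24Rik, 47.2% of the 36 cells with 1700020L24Rik, against 38.3% of all cells with Oxsr1. Depth still differed within the range. Median UMIs of control cells with and without the gene were 13564 and 11738 for Ccdc184 and 14146 and 11797 for Enpp2. For Oxsr1 in Nrp1L/L cells they were 10510 and 8488. The part of depth in these shared cells was not tested.

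**Figure D5:**
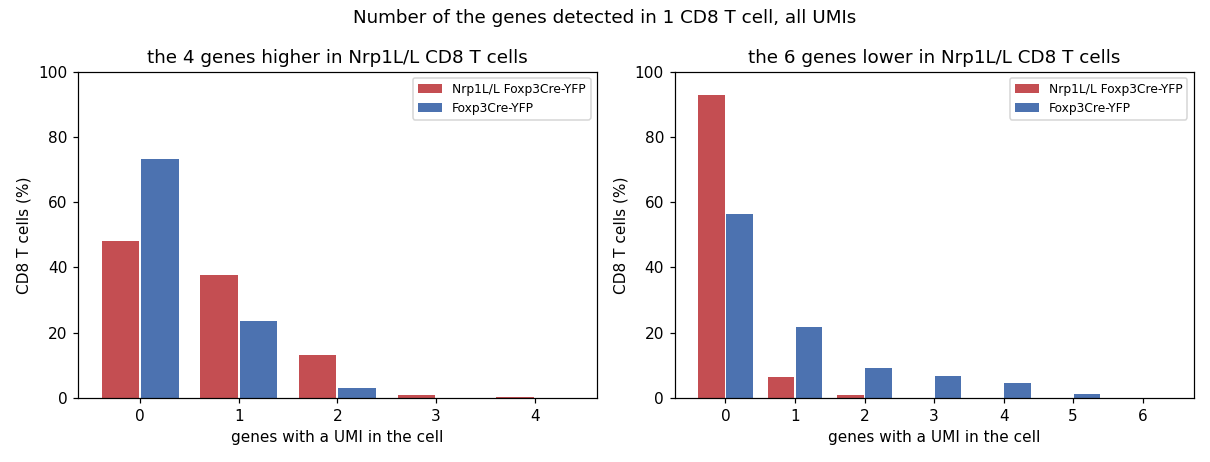
Percent of CD8 T cells, Nrp1L/L in red and control in blue, by how many of the 4 higher genes (left) or the 6 lower genes (right) had a UMI in the cell, with all UMIs counted and bars from 0. No lower gene was found in 92.9% of Nrp1L/L and 56.4% of control cells, and no Nrp1L/L cell held more than 2 of them.

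Control CD8 T cells with at least 2 of the lower genes held fewer naive and memory transcripts than those with none. Of 12 such genes with at least 20 UMIs, 10 were lower by 2-fold or more and 0 higher (median log2 ratio -2.38), where 9.01% of all genes were lower and 9.13% higher. Tcf7, a transcription factor of memory-like T cells, stood at 3.60 CPM in the 52 cells and 59.4 CPM in the 133 (log2 -4.04, -5.96 to -2.62), and Klf2, which governs T cell exit from tissue, at 76.6 and 560 CPM (-2.87, -3.22 to -2.54). Among 25 effector genes 8 were higher and 4 lower. Tnfrsf9, an activation receptor, stood at 912 CPM in the 52 cells and 314 CPM in the 133 (1.54, 1.36 to 1.72), while the chemokine gene Ccl5 stood at 1190 and 5713 CPM (-2.26, -2.35 to -2.18).

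Granzymes of the cluster Gzmc to Gzmf were also higher in the 52 cells. Gzmc stood at 1170 CPM in the 52 cells and 103 CPM in the 133 (3.51, 3.23 to 3.79) and Gzmd at 292 and 5.32 CPM (5.78, 4.64 to 7.23). These genes are near-identical copies, so their single values are uncertain. Held to cells of 6000 to 20000 UMIs (24 and 68 cells), 5 of 8 naive genes were lower by 2-fold and 0 higher (median -1.66) where 12.1% of all genes were lower and 6.56% higher, and Gzmc remained at 2.95 (2.64 to 3.27). Ccr7 was then at 0.16 (-0.54 to 0.84), so not every naive gene followed. The part of the cell cycle in these differences was not tested.

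Nrp1L/L CD8 T cells with a UMI of a higher gene were set beside those without it. Of the 118 cells with Oxsr1 45 were cycling, where 95 of all 394 were. The part of the cell cycle in the differences below, for each of these genes, was not tested. In the 118 Nrp1L/L CD8 T cells with an Oxsr1 UMI 9 of 14 naive and memory genes were lower by 2-fold or more than in the 276 without and 0 were higher, the median being -1.71, where 6.73% of all genes were lower and 5.39% higher. Tcf7 stood at 4.24 CPM in cells with Oxsr1 and 73.8 CPM in those without (-4.12). Of 23 effector and exhaustion genes 4 were higher and 1 lower. The depths were 9782.5 and 5960.5 UMIs, and in cells of 6000 to 20000 UMIs 4 of 12 naive genes were lower and 0 higher, the median being -0.80, where 6.29% of all genes were lower and 5.11% higher. Of 22 effector and exhaustion genes 1 was then higher and 2 lower. In the 55 cells with 1700020L24Rik the median of the naive and memory genes was -0.92, and -0.24 in the 36 of 6000 to 20000 UMIs.

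In the 44 Nrp1L/L cells with Fam65b 5 of 14 naive and memory genes were higher by 2-fold or more and 0 lower, where 7.00% of all genes were higher and 12.8% lower, among them Il7r, the interleukin-7 receptor, at 88.3 CPM in cells with Fam65b and 22.4 CPM in those without (1.98). In the 51 with Frat2 the count was 5 of 14 higher and 0 lower, where 6.36% of all genes were higher and 11.1% lower, with Lef1 at 61.8 CPM in cells with Frat2 and 21.1 CPM in those without (1.55). In cells of 6000 to 20000 UMIs 3 of 12 naive genes were higher with Fam65b and 6 of 12 with Frat2, and 0 lower with either, where 8.35% and 7.56% of all genes were higher and 14.2% and 14.3% lower. Il7r was not among the 3, at 0.50 (-1.88 to 2.23) with 3 UMIs in the cells with Fam65b. At any depth 2 of 23 effector genes were higher by 2-fold or more and 0 lower in cells with Fam65b, and 1 was higher and 1 lower in cells with Frat2. Median depths were close to those of the cells without the gene, 5857.5 against 6643.5 UMIs for Fam65b and 5531 against 6622 UMIs for Frat2.

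Pathway partners are given beside the shares of all 8909 genes in CD8 T cells, 6.56% higher and 4.89% lower by 2-fold or more (11.4% in either direction). In lists of 2 to 11 genes these shares give about 1 gene or none, so nothing is read from counts of 0 to 2. Of 8 other genes of the WNK-OSR1 pathway with at least 20 UMIs in CD8 T cells, 0 were at least 2-fold different. The WNK kinase Wnk1 stood at 107 CPM in Nrp1L/L and 103 CPM in control cells (log2 0.06, -0.16 to 0.28) and Stk39, the sister kinase of Oxsr1, at 74.0 and 80.2 CPM (-0.12, -0.38 to 0.14). Of 11 GSK3 and beta-catenin genes 2 were higher and 0 lower, Apc at 1.38 (-0.15 to 3.19) and Dvl3 at 1.64 (0.16 to 3.43), both on few UMIs, and Gsk3b stood at 0.67 (0.22 to 1.13).

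Of 6 lysophosphatidic acid genes beside Enpp2 0 were higher and 2 lower, where 6.56% of all genes were higher and 4.89% lower. The 2 were Enpp4 at -1.87 (-3.48 to -0.49) and the phospholipase Pla1a at -1.42 (-2.36 to -0.53), while the receptor Lpar6 stood at 0.59 (-0.18 to 1.40). Of 8 Ras-MAPK feedback genes beside Tmem158 1 was higher, Spry1 at 31.4 CPM in Nrp1L/L and 7.39 CPM in control cells (2.09, 1.42 to 2.82), and 0 lower. Pairs of trefoil-related, armadillo and pluripotency genes that passed 20 UMIs showed no 2-fold difference. They were Cxcr4 (0.13) and Muc1 (0.99, 0.04 to 2.01), the plakophilin Pkp3 (0.26) and Ect2 (0.20), and Klf2 (0.23) and Klf4 (0.95, 0.11 to 1.84), so Muc1 and Klf4 came close to 2-fold. Over all 8909 genes the median log2 ratio was 0.00. The list medians were 0.16 (WNK), 0.15 (GSK3), -0.41 (lysophosphatidic acid), 0.17 (Ras-MAPK), 0.56 (trefoil), 0.23 (armadillo) and 0.59 (pluripotency), the last 3 over 2 genes each.

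As a whole the 14 naive and memory genes had 2 higher by 2-fold or more and 0 lower in Nrp1L/L CD8 T cells (median 0.77), and the 26 effector and exhaustion genes had 11 higher and 5 lower (median 0.90), where 6.56% of all genes were higher and 4.89% lower. The 5 were the granzyme genes Gzmc, Gzmd, Gzme and Gzmf and the chemokine gene Xcl1. Other granzyme genes were among the 11 higher, with ratios of 1.08 (1.03 to 1.12) for Gzmb, 1.44 for Gzma and 1.34 for Gzmk. Gzmc stood at 18.9 CPM in Nrp1L/L and 639 CPM in control CD8 T cells (-5.08, -5.46 to -4.72). These lists were chosen with results of these data known.

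Neighbouring genes were looked at on both sides of each member. Ccdc148 starts 0.167 kb before Pkp4 on the opposite strand, and gave 6 UMIs in Nrp1L/L and 36 UMIs in control CD8 T cells, a log2 ratio of -2.79 (-4.33 to -1.53), beside -2.41 for Pkp4. The GC box window printed for Pkp4 lies between these starts. The next genes on the other side of Pkp4 had ratios of -0.51 (Dapl1) and 1.87 (Tanc1). The chemokine genes Ccl5, Ccl3 and Ccl4 lie 84.5, 207 and 221 kb beyond 1700020L24Rik and had ratios of 1.94, 1.80 and 1.57, while of the genes between, Taf15 had -0.30 (-0.65 to 0.05) and Heatr9 1.96 (-0.31 to 5.21) on 9 UMIs in Nrp1L/L and 2 in control cells. Myd88 and Acaa1a next to Oxsr1 had 0.56 and 0.03, and Asb8, 1.53 kb before Ccdc184, had 0.24 (-0.39 to 0.87). Pfkm, 34.7 kb before Ccdc184, had -1.69 (-3.52 to -0.14) on 5 UMIs in Nrp1L/L and 14 in control cells. Taf2 and Dscc1 beyond Enpp2 had -0.77 (-1.60 to 0.04) and -0.74 (-1.31 to -0.18). Tff2 and Tff3, the family members beside Tff1, had 0 UMIs in CD8 T cells of both libraries.

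The annotation places other genes on top of 5 members. Oxsr1 shares ground with Slc22a14 and Gm22729 on the same strand, 1700020L24Rik with Mmp28, Fam65b with Gm11346 and C530050E15Rik, Tff1 with Gm15318 and Enpp2 with Gm26684 on the opposite strand. Slc22a14, Mmp28, Gm15318 and Gm26684 had 0 UMIs in CD8 T cells of both libraries and C530050E15Rik had 1 in the Nrp1L/L and 0 in the control library, while Gm22729 and Gm11346 were not analysed here. The strand setting of the counting is not given in the sources used here, so reads of overlapping genes cannot be told apart.

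The genes most like each member were ranked by Pearson's r of log2(CPM + 10) over 10 points, the 5 classes in 2 libraries, which share library and depth. For the higher genes these were Kremen2 (r = 0.96) for Oxsr1, Znrf2 (0.96) for 1700020L24Rik, Phf1 (0.98) for Fam65b and Zfp281 (0.95) for Frat2. For the lower genes they were Gzmc (0.96) for Ccdc184, Tatdn1 (0.95) for Tmem158, Usp14 (0.94) for Utf1, Zmiz2 (0.97) for Tff1, Zfp668 (0.93) for Enpp2 and Slc16a11 (0.98) for Pkp4. Gzmf was second for Pkp4 (0.95), at 0.291 CPM in Nrp1L/L and 284 CPM in control CD8 T cells. Cdkn2a, a cell cycle inhibitor, was second for Tff1 (0.95), at 10.5 CPM in Nrp1L/L and 41.3 CPM in control CD8 T cells. Granzyme genes were therefore among the likest genes of 2 of the 6 lower members. The points include the CD8 T cell levels on which the members were picked, and Gzmc and Gzmf were much lower in Nrp1L/L CD8 T cells too. A high r is thus partly built in and is given as a description.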

How the data were processed

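Both libraries were measured by 3' droplet sequencing. The deposited files hold raw UMI counts per gene and barcode (unit counts), which the authors made with Cell Ranger 1.3 on the mm10 build, per the submitters' processing notes. Totals were 8978610 UMIs in 1301 barcodes (Nrp1L/L) and 13042802 UMIs in 1310 barcodes (control). From these counts, doublets were scored per library with Scrublet (scanpy 1.11.5; 2% expected). Its calls, 8 barcodes, were left out of the control library. It called 3 in the Nrp1L/L library, too few to have worked, so the 26 top scores were left out there. Cells passing the Lyz2 rule and the CD3 or NK rule were left out (13 and 18 cells), and 121 and 207 cells matched no class. UMIs were summed per class and scaled to CPM. Levels carry exact Poisson, ratios conditional binomial and shares Clopper-Pearson 95% intervals. A floor of 3 UMIs bounded ratios against 0, and no ratio was given where both sides held 3 or fewer. Pathway and state genes needed 20 UMIs, and genes were named as all members plus up to 3 of each list, by most UMIs; further list genes, neighbouring genes and genes of cells split by a member were named after their values were seen. The scripts were tested on simulated data. Alternatives included TMM scaling (edgeR 4.0.16), thinning and stricter classes. Annotation was GENCODE M21. The members and lists were chosen with earlier results of these data known. Results of 1 pathway list and 1 state gene are not reported here.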

Additional observations from a re-analysis of the deposited data

Results flagged for a closer look

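Enpp2 went opposite ways in 2 classes of T cells. In other CD3 cells its log2 ratio, Nrp1L/L over control, was 2.04 (1.07 to 3.13), with 48 UMIs in 12 Nrp1L/L cells and 11 UMIs in 4 control cells, while in CD8 T cells it was -3.84 (-5.01 to -2.87). The difference between the classes was not tested, since each genotype had 1 library.

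Fam65b was also higher among cells outside the 5 classes, which no comparison above uses. These are the 121 Nrp1L/L and 207 control cells that matched no class and the 13 and 18 left out for matching 2 lineages. It stood there at 13.2 CPM (11 UMIs in 9 of 134 cells) in the Nrp1L/L and 5.04 CPM (11 UMIs in 9 of 225 cells) in the control library, a log2 ratio of 1.39.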

How the results depend on the processing

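No paired analysis was possible because each genotype had 1 library, and for the same reason no replicate could be left out. The number of genes at least 2-fold different stayed within 1.5 times under 10 settings in CD8 T cells (10), in cycling (7 to 10) and non-cycling CD8 T cells (8 to 10) and in other CD3 cells (7 to 8). The 2 settings that hold cells to 6000 to 20000 UMIs or leave out the fullest cell were chosen after seeing the data. In NK cells the count of 2 became 1 in cells of 6000 to 20000 UMIs and 4 without the fullest cell. In myeloid cells the count of 2 became 0 after thinning, and 1 with all barcodes kept, with stricter class minimums, with at least 20 UMIs per gene, in cells of 6000 to 20000 UMIs, and without the fullest cell. The cause was not tested. Of 504 recomputed ratios of single genes 477 stayed within their counting interval, 27 moved beyond it and 0 of those past 2-fold changed sign. No sign could be given for 1700020L24Rik in myeloid cells, where thinning left 0 Nrp1L/L UMIs and gives no more than an upper bound of 0.74. Depth limits what can be said of the lower genes in the Nrp1L/L library, where 3 to 21 UMIs carry each CD8 T cell level.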
